A study of Sordaria macrospora with 14 samples.

Results

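Perithecia of the deletion strain Δasm2 were compared with perithecia of the deletion strain ΔSMAC_03952, 2 libraries against 2, in all 9869 gene models of the deposited table. Sordaria macrospora is a self-fertile filamentous ascomycete, and perithecia are its flask-shaped fruiting bodies. These 4 libraries are part of a set of 14 from 7 groups of 2 independent biological replicates: mycelium and perithecia of the wild type, of Δasm2 and of ΔSMAC_03952, and mycelium of Δspt3. All strains were grown on corn meal medium for 6 days at 25 °C, in liquid for mycelium and on solid medium for perithecia, which were fixed in ethanol for 10 min and scraped off. Both strains compared carry a deletion, so neither is a control for the other, and the labels give neither the number of independent transformants behind a strain nor the product of either deleted gene.

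A perithecium grows from a coiled sexual hypha that becomes wrapped in sterile tissue, develops a pigmented wall, and forms asci with ascospores inside. Such a body holds many cell types, and a bulk library averages over them and over the stages present at harvest. Fewer cells of a type and less RNA per cell therefore cannot be told apart here.

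Total counts were 13144699 and 16645179 in the Δasm2 perithecia and 6383079 and 8673212 in the ΔSMAC_03952 perithecia, the shallowest pair of perithecia. Across genes, Spearman's correlation between replicates was 0.988 in Δasm2 perithecia and 0.992 in ΔSMAC_03952 perithecia, against 0.955 to 0.982 in the other groups. Levels are in CPM, counts relative to the TMM-scaled library size. A gene was called higher or lower where the adjusted p of edgeR's quasi-likelihood test, fitted over all 14 libraries, was under 0.05, and log2 fold changes are Δasm2 relative to ΔSMAC_03952 throughout.

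The targeted gene SMAC_03952 was examined first. It stood at 226 and 275 CPM in the Δasm2 perithecia and at 45.7 and 35.2 CPM in the ΔSMAC_03952 perithecia. In wild-type perithecia it stood at 171 and 180 CPM. The ΔSMAC_03952 libraries were the lowest of the 6 perithecia libraries, with part of the signal left, and the difference between the deletion strains was 2.63 on the log2 scale (SE 0.23, edgeR adjusted p = 9.4e-05). The table used here does not say which gene model is asm2, so the other deletion was not checked in this way.

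Of 9499 genes tested, 427 (4.50%) differed between the 2 strains. In Δasm2 perithecia 369 genes (3.88%) were higher and 58 (0.611%) were lower than in ΔSMAC_03952 perithecia. The differences were larger in the first direction. Among the 369, 331 differed by at least 2-fold, 139 by at least 4-fold, 71 by at least 8-fold and 35 by at least 16-fold, with a median log2 fold change of 1.75. Among the 58, the same steps held 53, 11, 4 and 3 genes, with a median of -1.37. The median over all genes tested was 0.03. In each of the 427 genes both replicates of one strain lay above both of the other, as they did in 60.6% of all genes tested. The lower group had 0 counts for 4 of the 369 and 1 of the 58, and with these at a bound of 3 counts over the group both medians were the same to 2 decimals.

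The number called depended on which libraries gave the estimate of spread. The common biological coefficient of variation was 0.237 over the 14 libraries and 0.135 over the 4 perithecia libraries alone. A fit of those 4 alone called 1855 genes, 1083 higher in Δasm2 and 772 lower, among them 368 of the 369 and all 58. The split was then 58.4% higher, against 86.4% in the fit of all libraries. At 4-fold or more the 4-library fit called 159 genes higher and 31 lower. With no test, 189 genes had a fitted difference of at least 4-fold upwards and 36 downwards. Leaving out 1 library at a time gave 153 and 207 genes without Δasm2 replicates 1 and 2, and 109 and 90 without ΔSMAC_03952 replicates 1 and 2, of which 6 to 8 were lower in Δasm2.

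**Figure D1:**
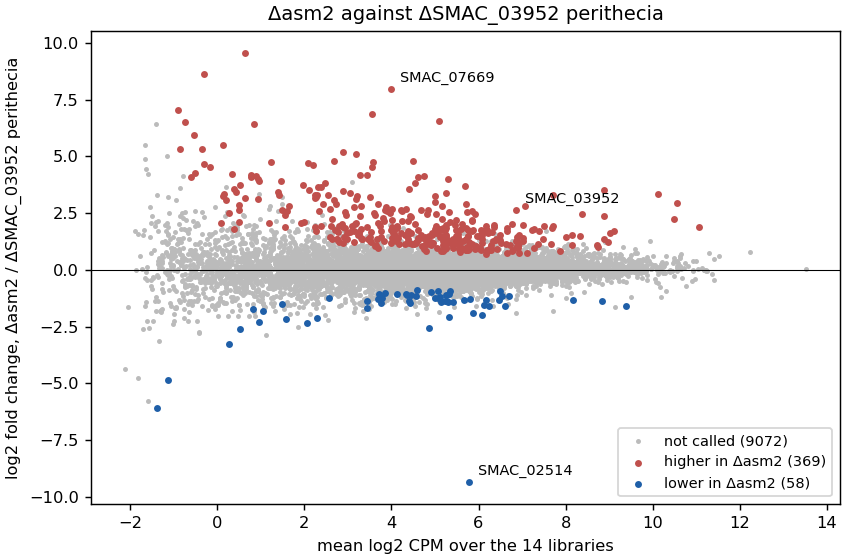
Fitted log2 fold change of Δasm2 over ΔSMAC_03952 perithecia (vertical) against the mean log2 CPM over the 14 libraries (horizontal), 1 point per gene. Of the 369 genes higher in Δasm2, 139 lie beyond a 4-fold difference, against 11 of the 58 lower genes, among which SMAC_02514 lies at -9.35.

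Genes are named here from those that reached 10 CPM in the higher strain, the first 12 by fold change in each direction. Most of the 12 higher in Δasm2 followed a graded order: high in wild-type perithecia, lower in Δasm2 and near the bottom of the range in ΔSMAC_03952. SMAC_07669 stood at 200 and 125 CPM in Δasm2 and at 0.434 and 0.795 CPM in ΔSMAC_03952 perithecia, and at 1299 and 1146 CPM in wild-type perithecia. The strains differed by 7.96 on the log2 scale, 249-fold (SE 0.55, edgeR adjusted p = 1.72e-05). All 3 perithecia groups were separate, with wild type on top. SMAC_07759 stood at 280 and 194 CPM in Δasm2 and at 1.16 and 2.68 CPM in ΔSMAC_03952 perithecia, against 1624 and 1593 CPM in the wild type. Its log2 fold change between the deletion strains was 6.88 (SE 0.89, edgeR adjusted p = 7.9e-04). SMAC_05779 stood at 439 and 362 CPM in Δasm2, 4.48 and 4.07 CPM in ΔSMAC_03952 and 1247 and 1278 CPM in wild-type perithecia, and the deletion strains differed by 6.55 in log2 (SE 0.75, edgeR adjusted p = 3.69e-04). In these genes the level in Δasm2 was a fraction of that of the wild type, and the level in ΔSMAC_03952 was a few CPM or less.

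Another 6 of the first 12 genes in this direction had the same order of groups, with both wild-type libraries above all 4 libraries of the deletion strains. SMAC_02681 had 62.7 and 75.3 CPM in Δasm2 perithecia, 2.31 and 1.49 CPM in ΔSMAC_03952 and 193 and 190 CPM in the wild type. SMAC_02704 had 66.2 and 85.6 CPM, 2.89 and 2.58 CPM, and 265 and 310 CPM in the same groups. SMAC_03185 had 68.1 and 38.4 CPM, 1.59 and 1.49 CPM, and 838 and 489 CPM. The log2 fold changes of these 3 between the deletion strains were 5.21, 4.80 and 5.11 (edgeR adjusted p = 3.63e-04, 7.15e-05 and 2.54e-04). These genes shared the order of the groups. SMAC_06782 stood at 14.6 and 11.1 CPM in Δasm2 and 0.289 and 0.596 CPM in ΔSMAC_03952 perithecia (log2 fold change 4.76, edgeR adjusted p = 2.54e-04). In SMAC_08033 the Δasm2 replicates lay far apart, at 79.0 and 15.2 CPM, above 1.88 and 1.59 CPM in ΔSMAC_03952 and far below 1337 and 1438 CPM in the wild type. SMAC_03547 had 125 and 54.8 CPM in Δasm2, 3.47 and 4.27 CPM in ΔSMAC_03952 and 1013 and 905 CPM in wild-type perithecia. The log2 difference was 4.76 in SMAC_08033 and 4.52 in SMAC_03547 (edgeR adjusted p = 0.00259 and 0.00342). Without Δasm2 replicate 1 the differences were 3.13 and 3.81, and without Δasm2 replicate 2 that of SMAC_08033 was 5.51. Without ΔSMAC_03952 replicate 2 the adjusted p of each was 0.0775, and without ΔSMAC_03952 replicate 1 that of SMAC_03547 was 0.0692. The differences of SMAC_06782 and SMAC_07759 were 5.41 and 7.64 without ΔSMAC_03952 replicate 2.

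The remaining 3 of the first 12 had another order, with Δasm2 level with the wild type or above it. SMAC_09039 stood at 16.5 and 15.1 CPM in Δasm2 perithecia and at 2.82 and 0.811 CPM in the wild type, and only 3 counts fell on it over both ΔSMAC_03952 libraries. With 501 counts in Δasm2 the ratio of the deletion strains was 88.9 (exact 95% bounds 30.2 and 432, counting error only; edgeR adjusted p = 3.8e-04). The fitted log2 difference, 6.44, was 5.69 without ΔSMAC_03952 replicate 1 and 10.80 without replicate 2, which leaves that strain at 0. SMAC_07256 stood at 166 and 124 CPM in Δasm2, 5.06 and 5.36 CPM in ΔSMAC_03952 and 29.5 and 26.0 CPM in wild-type perithecia. Its log2 fold change between the deletion strains was 4.79 (SE 0.30, edgeR adjusted p = 1.19e-05). Relative to wild-type perithecia it was higher in Δasm2 by 2.38 and lower in ΔSMAC_03952, with a log2 fold change of -2.41 (edgeR adjusted p = 1.37e-04 and 1.13e-04). These 2 comparisons share the wild-type libraries. SMAC_09044 had 25.3 and 32.9 CPM in Δasm2, which overlapped 51.6 and 27.0 CPM in the wild type, and 1.16 and 1.09 CPM in ΔSMAC_03952 (log2 fold change 4.69, edgeR adjusted p = 0.00201, and 0.0557 without ΔSMAC_03952 replicate 2).

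The 12 named genes lower in Δasm2 began with SMAC_02514, which was nearly lost in that strain. It stood at 0.730 and 0.494 CPM in Δasm2 perithecia and at 410 and 386 CPM in ΔSMAC_03952 perithecia, which overlapped the wild type at 386 and 433 CPM. The log2 fold change was -9.35, 652-fold (SE 1.09, edgeR adjusted p = 4.13e-04). In Δasm2 mycelium it had 6.64 and 0 CPM. Its lowest value in any library of another strain was 99.3 CPM, in Δspt3 mycelium. In a search made after its values were seen, it was the 1 gene tested whose highest Δasm2 library was at least 4-fold below every library of the other strains, with those at 10 CPM or more. The same search for ΔSMAC_03952 found 0 genes, so it missed SMAC_03952 itself, whose level in that strain is given above. The files pair SMAC_02514 with no name or product, and since no source used here gives the gene model deleted in Δasm2, its low level cannot be told apart from the deletion itself.

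The next genes by fold change stood above the wild type in ΔSMAC_03952 perithecia. SMAC_09026 had 31.2 and 31.8 CPM in Δasm2, 169 and 197 CPM in ΔSMAC_03952 and 8.01 and 9.42 CPM in wild-type perithecia (-2.54 in log2 between the deletion strains, SE 0.57, edgeR adjusted p = 0.0253). SMAC_08963 had 3.65 and 5.93 CPM, 19.5 and 30.0 CPM, and 0.763 and 1.37 CPM in these groups. SMAC_07800 had 45.6 and 48.5 CPM, 157 and 245 CPM, and 13.0 and 21.2 CPM. All 3 groups were separate in these genes, with ΔSMAC_03952 on top, Δasm2 in the middle and the wild type at the bottom, the reverse of the order above. SMAC_02738 and SMAC_07688 had the same order, at 145 and 174 CPM and at 180 and 243 CPM in ΔSMAC_03952 and at 36.7 and 43.3 CPM and at 51.3 and 62.5 CPM in Δasm2 perithecia. SMAC_08963, SMAC_07800, SMAC_02738 and SMAC_07688 had log2 fold changes from -2.36 to -1.90 (edgeR adjusted p = 0.0171, 0.0295, 0.0111 and 0.0383).

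In SMAC_03042 the Δasm2 perithecia, at 2350 and 2593 CPM, were close to the wild type at 1990 and 2207 CPM, and ΔSMAC_03952 stood at 7263 and 7379 CPM (-1.57 in log2, SE 0.32, edgeR adjusted p = 0.0137). SMAC_08129 likewise had 64.3 and 57.4 CPM in Δasm2, 76.8 and 86.0 CPM in the wild type and 175 and 181 CPM in ΔSMAC_03952 (log2 fold change -1.55, edgeR adjusted p = 0.00111). SMAC_04075, at 2.56 and 2.69 CPM in Δasm2 and 9.26 and 13.8 CPM in ΔSMAC_03952, and SMAC_06091, at 81.3 and 112 CPM and 282 and 295 CPM, differed by -2.14 and -1.57 (edgeR adjusted p = 0.0296 and 0.00942). In SMAC_09436 and SMAC_09166 it was Δasm2 that stood apart from the other perithecia. SMAC_09436 had 45.0 and 51.2 CPM in Δasm2, 146 and 148 CPM in ΔSMAC_03952 and 116 and 127 CPM in the wild type (log2 fold change -1.61, edgeR adjusted p = 9.9e-04). SMAC_09166 had 5.11 and 5.16 CPM, 12.7 and 15.9 CPM, and 14 and 13.2 CPM (log2 fold change -1.48, edgeR adjusted p = 0.0201). The calls of 8 of these 12 genes were lost without any 1 of the 4 libraries compared, with edgeR adjusted p between 0.0529 and 0.285. Those of SMAC_02514, SMAC_09436 and SMAC_08129 were kept, and SMAC_06091 lost its call without Δasm2 replicate 1 or either ΔSMAC_03952 replicate (adjusted p 0.0641 to 0.135). In the 4-library fit all 12 passed, with adjusted p of at most 0.00238.

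**Figure D2:**
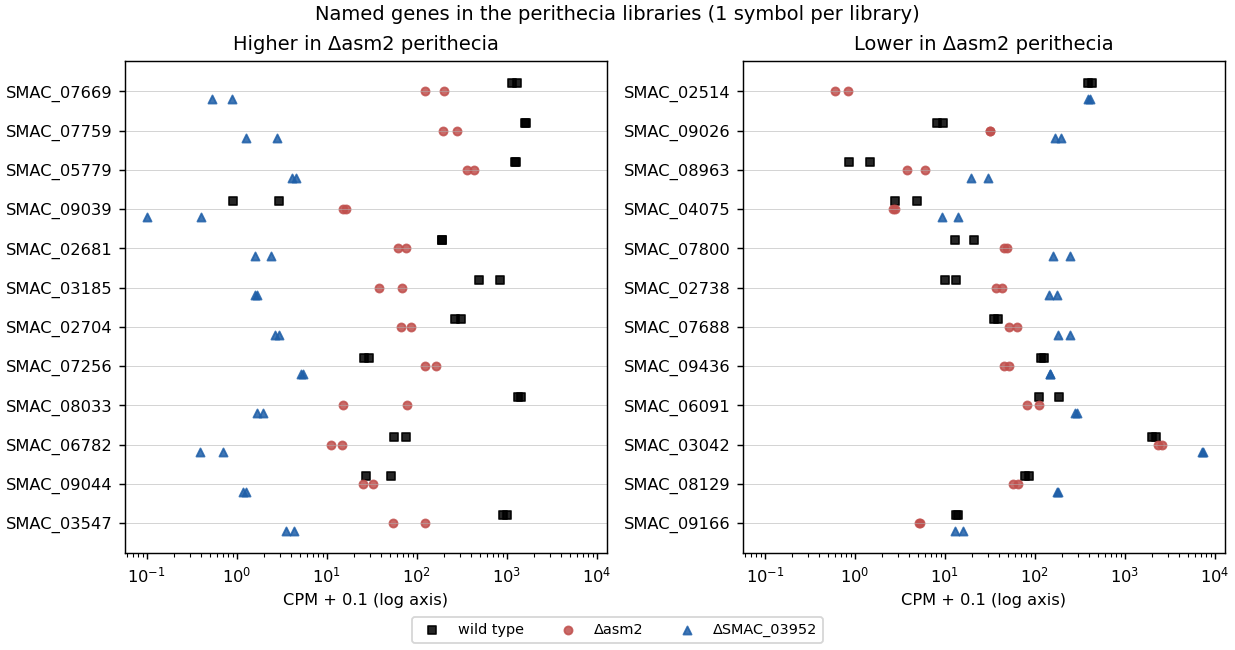
CPM plus 0.1 on a log axis in the 6 perithecia libraries for the 12 genes named in each direction, 1 symbol per library. On the left, wild type lies above Δasm2 and Δasm2 above ΔSMAC_03952 in 9 genes; on the right, SMAC_02514 is near 1 CPM in Δasm2 alone.

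Over the full lists, the position of the wild-type perithecia was read beside both strains. Among the 369 genes higher in Δasm2, both wild-type libraries lay above all 4 libraries of the deletion strains in 110 (29.8%), between the strains in 114 (30.9%) and below all 4 in 34 (9.21%). Among the 58 lower genes these numbers were 2 (3.45%), 19 (32.8%) and 20 (34.5%). Over all 9499 genes tested the numbers were 2086, 459 and 1899. Genes picked for separate deletion strains leave more room between them, so the middle share is a description with no reference.

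The tissue labels were checked with genes that mark perithecia in the wild type, in libraries outside the comparison. There were 95 genes at least 8-fold higher in wild-type perithecia than in wild-type mycelium and 149 at least 8-fold lower; these lists come from calls that took 14.7% of all genes tested as higher in wild-type perithecia and 13.3% as lower. The 95 genes summed to 22874 and 21007 CPM in wild-type perithecia and to 2052 and 1855 CPM in wild-type mycelium. They summed to 3381 and 2629 CPM in Δasm2 perithecia and to 756 and 723 CPM in ΔSMAC_03952 perithecia. Both deletion strains were thus far below the wild type, and ΔSMAC_03952 perithecia were below even wild-type mycelium. They were still above the mycelium of their own strains, at 554 and 555 CPM in Δasm2 and at 544 and 519 CPM in ΔSMAC_03952. The 149 mycelial genes summed to 15459 and 12802 CPM in Δasm2 perithecia, 9940 and 10257 CPM in ΔSMAC_03952 and 9249 and 8052 CPM in wild-type perithecia, all well under the 38401 CPM of the lowest mycelium of these 3 strains. The lists were chosen on the wild type, so its own separation is given by the choice. Perithecia also differed from mycelium in solid against liquid medium and in ethanol fixation. These cannot be told apart from tissue in any comparison here. In both deletion strains the labelled tissues were separate by either list, by the smallest margin in ΔSMAC_03952 on the perithecium list, at 723 to 756 CPM against 519 to 544 CPM.

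**Figure D3:**
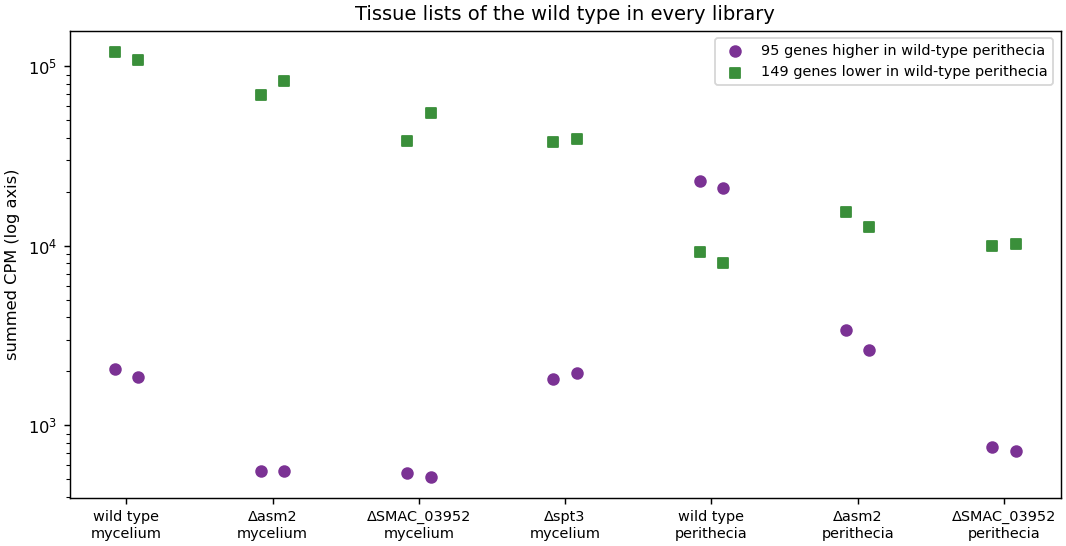
Summed CPM (log axis) of the 95 genes at least 8-fold higher and the 149 at least 8-fold lower in wild-type perithecia, 1 symbol per library, in all 7 groups. In perithecia the 95 genes step down from 21007 to 22874 CPM in the wild type to 2629 to 3381 in Δasm2 and 723 to 756 in ΔSMAC_03952.

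Gene by gene, 45 of the 95 (47.4%, against 3.88% of all genes) were higher in Δasm2 than in ΔSMAC_03952 perithecia. The log2 fold change was positive in 86 of the 95, with a median of 1.88. By edgeR 0 of the 95 were lower in Δasm2, also 0 at an unadjusted p under 0.05. With the 8-fold list drawn anew, DESeq2 called 47 of 93 genes higher and 0 lower. Fits of each comparison's own libraries called 58 of 88 higher and 2 lower. The 95 include 8 of the 12 genes named as higher. Leaving out ΔSMAC_03952 replicate 2, the count was 23 of 89. Of the 149 mycelial genes, 24 (16.1%, against 3.88% of all genes) were higher in Δasm2 and 3 (2.01%, against 0.611%) lower, with a median of -0.03. At an unadjusted p under 0.05 these counts were 38 and 32, and 73 of the 149 were positive. The fold changes of the list as a whole thus leaned to neither strain, while its called genes were mostly higher in Δasm2. Seen from the other side, 137 of the 369 genes (37.1%) were higher in wild-type perithecia than in wild-type mycelium and 65 (17.6%) lower. These were 9.78% and 5.15% of the 2 wild-type lists. Of the 58 genes lower in Δasm2, 6 (10.3%) were higher in wild-type perithecia and 24 (41.4%) lower. On the 8-fold mycelial list there were 3 of the 58. These counts moved with the fit. Leaving out 1 of the 4 libraries compared lowered the 137, the 65 and the 24. The lists of called genes were shorter there as well, so a lower count does not by itself give the share. With each comparison fitted on its own libraries the numbers were 288 and 216 of 1083, and 304 of 772. Those fits called 1277 of all 9499 genes higher in wild-type perithecia and 1438 lower. By DESeq2 the 65 became 107 of 511 and the 24 became 84 of 174, with 1511 of 9853 genes lower in wild-type perithecia. The 24 also became 55 of 102 and 53 of 100 without ΔSMAC_03952 mycelium replicates 1 and 2, 15 of 47 without wild-type perithecia replicate 1 and 15 of 44 without either wild-type mycelium replicate.

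The same strain pair was followed in mycelium. The mycelium libraries enter no group mean of the perithecia comparison. All 14 libraries share the filter, the scaling and the estimate of spread. In mycelium 247 genes (2.60%) were higher in Δasm2 than in ΔSMAC_03952 and 82 (0.863%) lower. Among the 369 of the perithecia, 118 (32.0%) were also higher in Δasm2 mycelium and 1 was lower. The 118 were 47.8% of the genes higher in Δasm2 mycelium. The median log2 fold change of the 369 in mycelium was 0.90, positive in 318 of them, while over all genes it was -0.02. Of the 58 genes lower in Δasm2 perithecia, 9 (15.5%) were lower in mycelium too, with a median of -0.52. The 9 became 28 of 174 by DESeq2, which called 197 of 9853 genes lower in Δasm2 mycelium, and 0 of 772 in separate fits. With 1 library left out, the 9 rose without ΔSMAC_03952 mycelium replicate 1. It fell without any other library of the 4 groups, and the number of lower genes in perithecia changed as well. By edgeR 0 of the 58 were higher in Δasm2 mycelium, also 0 at an unadjusted p under 0.05 and 0 by DESeq2. Mycelium fold changes rose with the length of the gene model (Spearman 0.34 across genes, -0.08 in perithecia). With length trends removed, 151 of 396 genes higher in Δasm2 perithecia were also higher in Δasm2 mycelium, as were 308 of all 9499 genes. In a fit of each comparison's own 4 libraries the mycelium comparison called 40 genes, 39 higher and 1 lower in Δasm2. With 1 lower gene in mycelium, the 0 of 772 above could have been at most 1. Of the 39 genes, 30 were also higher in Δasm2 perithecia, as were 1083 of all 9499 genes in that fit. Leaving out 1 library of the 4 groups of these strains lowered the 118 in every case, most without ΔSMAC_03952 perithecia replicate 2. Without a perithecia library the list of 369 was shorter as well, so a lower count does not by itself give the share.

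**Figure D4:**
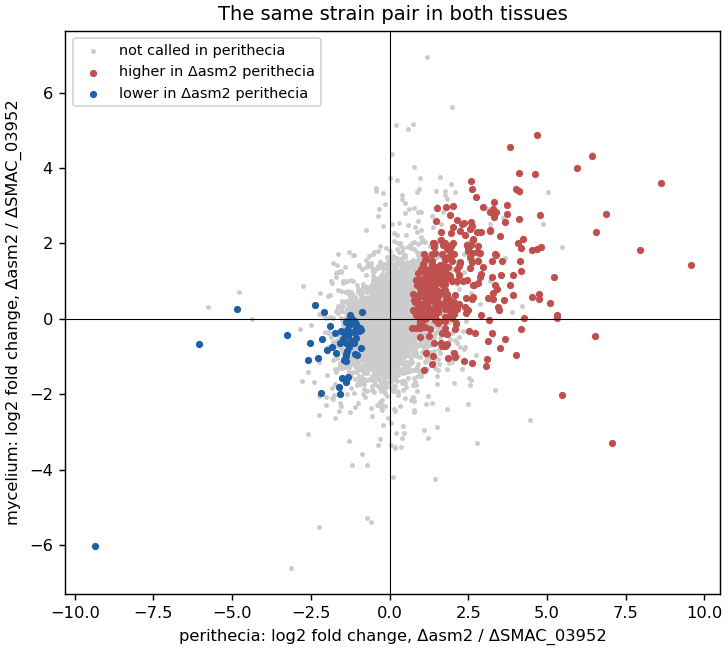
Log2 fold change of Δasm2 over ΔSMAC_03952 in perithecia (horizontal) and in mycelium (vertical), 1 point per gene. The 369 lie above 0 in mycelium in 318 cases, while the 58 lower genes lie mostly below it.

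Few genes of the perithecium list were called in mycelium. There 4 of the 95 were higher in Δasm2 and 1 was lower, against 247 and 82 of all 9499 genes. The median difference was 0.33 in log2, against -0.02 over all genes. The 95 were chosen as low in wild-type mycelium. Between 8 and 16 of them had 0 counts in each mycelium library of the 2 strains, which left little room for calls. SMAC_07669 was higher in Δasm2 mycelium too, at 16.4 and 16.7 CPM against 7.22 and 2.61 CPM (log2 fold change 1.83, edgeR adjusted p = 0.0302). SMAC_02704 had 2.00 and 4.50 CPM against 0.774 and 0.870 CPM (1.90, edgeR adjusted p = 0.0357). SMAC_07759 had 0.580 and 8.68 CPM against 0.387 and 0.754 CPM (2.78, edgeR adjusted p = 0.149), so its replicates lay far apart. Outside that list, SMAC_07256 stood at 78.1 and 55.3 CPM in Δasm2 mycelium and at 10.8 and 9.05 CPM in ΔSMAC_03952 mycelium (2.75, edgeR adjusted p = 2.79e-04), and SMAC_09039 at 11.2 and 11.9 CPM against 0.645 and 0.522 CPM (4.32, edgeR adjusted p = 0.00260). Of the lower genes, SMAC_02514, SMAC_09436 and SMAC_03042 passed in mycelium in the same direction. SMAC_03042 stood at 487 and 583 CPM in Δasm2 mycelium against 1522 and 2763 CPM.

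Whether the strain difference itself changed with tissue was tested as an interaction, which uses the perithecia libraries again. It passed for 14 genes (0.147%), 10 with a larger difference in favour of Δasm2 in perithecia and 4 in mycelium. SMAC_07669 led the first kind, with an interaction of 6.13 on the log2 scale (SE 0.68, edgeR adjusted p = 0.00743). SMAC_07756 had 215 and 168 CPM in Δasm2 and 12 and 11.6 CPM in ΔSMAC_03952 perithecia, but 13.7 and 28.6 CPM and 14.8 and 65.2 CPM in the mycelium of these strains, where the groups overlapped (interaction 4.97, SE 0.77, edgeR adjusted p = 0.0328). The reverse was seen in SMAC_01390, with 21.9 and 19.4 CPM in Δasm2 mycelium and 0.129 and 0.174 CPM in ΔSMAC_03952 mycelium. In perithecia it had 1.10 and 0.824 CPM and 0.289 and 0.497 CPM (interaction -5.74, SE 0.87, edgeR adjusted p = 0.0323). SMAC_09488 had 43.9 and 21.6 CPM in Δasm2 mycelium against 2.19 and 3.6 CPM, and in perithecia 5.84 and 4.83 CPM against 7.09 and 7.15 CPM (interaction -3.88, SE 0.55, edgeR adjusted p = 0.0295). These calls are fragile. By edgeR 0 genes passed without ΔSMAC_03952 perithecia replicate 1 and 0 without replicate 2 (660 and 454 at an unadjusted p under 0.05), and 1 and 8 passed without Δasm2 perithecia replicates 1 and 2, 4 without Δasm2 mycelium replicate 1 and 25 without ΔSMAC_03952 mycelium replicate 1, while DESeq2 called 104 with all libraries.

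The 369 genes were also followed in Δspt3 against wild-type mycelium. In budding yeast, Spt3 belongs to the SAGA coactivator complex. Of the 369, 176 (47.7%) were lower in Δspt3 and 113 (30.6%) higher, against 30.2% and 29.1% of all genes tested, and their median was -0.48 in log2. The 58 lower genes gave 18 (31.0%) lower and 17 (29.3%) higher, near the share of all genes. Of the 12 named higher genes, 10 were lower in Δspt3 and 1 was higher. The 12 named lower genes were similar, with 8 lower and 1 higher, so this was not particular to 1 direction. Among the higher genes, SMAC_02704 had 20.6 and 14.9 CPM in wild-type mycelium and SMAC_09044 had 21.6 and 17.6 CPM. Among the lower genes, SMAC_08963 had 21.2 and 12.7 CPM there. Each of these had 0 CPM in both Δspt3 libraries.

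**Figure D5:**
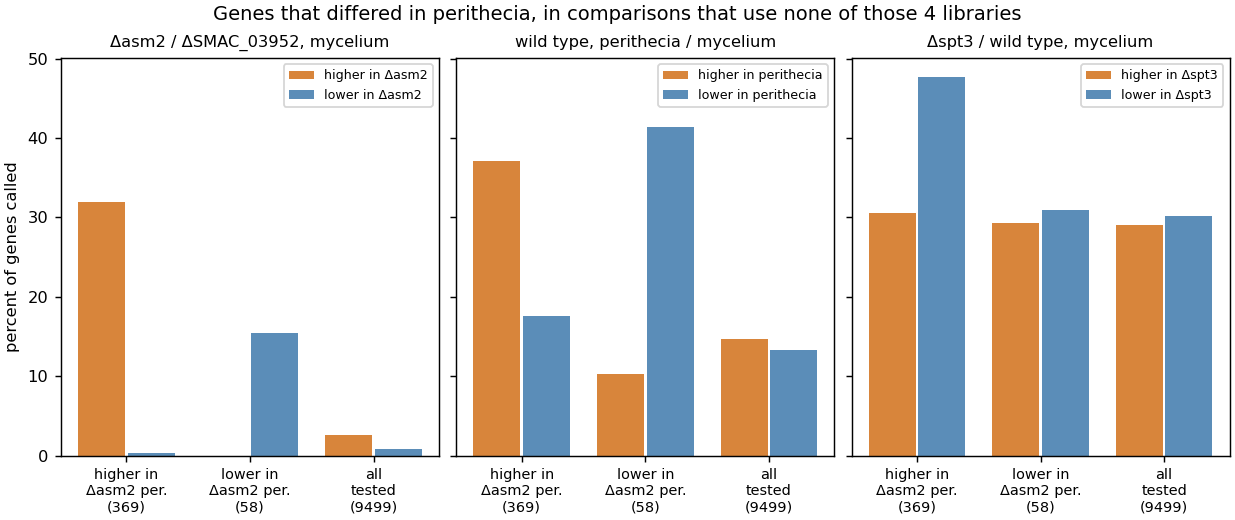
Percent of the 369 genes higher and the 58 genes lower in Δasm2 perithecia, and of all 9499 genes, that were called higher or lower in 3 contrasts between other libraries of the same 14-library model. The higher set was called higher in 32.0% against 2.60% of all genes in Δasm2 mycelium and in 37.1% against 14.7% in wild-type perithecia. With each contrast fitted on its own libraries these counts were 30 and 288 of 1083 genes, against 39 and 1277 of all 9499.

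Neighbouring genes were examined with the gene order of RefSeq assembly ASM3387043v1. Of the 369 higher genes 356 could be placed, and 61 of them (17.1%) lay next to another higher gene, in stretches of at most 3. Of all 9173 placed genes tested, 604 (6.58%) lay next to a higher gene. Of the 56 placed lower genes 0 had a lower neighbour, where 102 of all placed genes (1.11%) did, so too few were placed to read a difference. There were 5 runs of 3 adjacent genes. The run SMAC_03620, SMAC_03621 and SMAC_03622 held genes lower in wild-type perithecia than in wild-type mycelium. SMAC_03622 had 82.3 and 46.8 CPM in Δasm2 perithecia, 11.3 and 7.25 CPM in ΔSMAC_03952 and 26.7 and 12.5 CPM in wild-type perithecia, against 1303 and 1213 CPM in wild-type mycelium (log2 fold change between the deletion strains 2.81, edgeR adjusted p = 0.00469, and 0.116 without ΔSMAC_03952 replicate 2). SMAC_03621 had 63.8 and 56.2 CPM in Δasm2 perithecia against 8.24 and 11.1 CPM in ΔSMAC_03952 and 6.03 and 4.74 CPM in the wild type (2.62, edgeR adjusted p = 1.62e-04). SMAC_03620 had 10.7 and 9.55 CPM against 3.18 and 2.19 CPM (1.93, edgeR adjusted p = 0.0337), a call lost without any 1 of the 4 libraries (adjusted p 0.113 to 0.375). Each of the 3 was higher in Δasm2 mycelium as well, by 2.75, 2.46 and 1.92 in the order of the run (edgeR adjusted p = 0.00616, 3.2e-04 and 0.0334).

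The run SMAC_03917, SMAC_03916 and SMAC_12728 differed by 1.82, 2.35 and 1.91 between the deletion strains in perithecia (edgeR adjusted p = 0.00596, 0.00123 and 0.00599). SMAC_03916 had 19.4 and 20.6 CPM in Δasm2, 4.19 and 3.68 CPM in ΔSMAC_03952 and 4.12 and 5.43 CPM in the wild type, so that Δasm2 alone stood apart. SMAC_12728 had 29.9 and 22.0 CPM in Δasm2, 7.81 and 6.06 CPM in ΔSMAC_03952 and 20.9 and 15.5 CPM in the wild type, so that ΔSMAC_03952 was the lowest group. The calls of SMAC_03917 and SMAC_12728 were lost without Δasm2 replicate 1 or either ΔSMAC_03952 replicate (adjusted p 0.0516 to 0.143). In the run SMAC_01101, SMAC_01102 and SMAC_01103, SMAC_01101 had 90.1 and 102 CPM in Δasm2, 15.9 and 15.0 CPM in ΔSMAC_03952 and 63.0 and 60.8 CPM in wild-type perithecia (2.63, edgeR adjusted p = 9.4e-05). SMAC_01102 had 68.6 and 73.0 CPM, 14.6 and 15.5 CPM, and 25.2 and 25.1 CPM (2.23, edgeR adjusted p = 4.98e-04), and SMAC_01103 had 29.3 and 23.9 CPM against 13.3 and 10.6 CPM (1.15, edgeR adjusted p = 0.0144, lost without the same 3 libraries at 0.0728 to 0.269). Neighbours within a run thus did not share 1 position of the wild type. No source used here says how reads over adjoining or overlapping gene models were assigned.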

How the data were processed

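The deposited table holds raw counts per gene model, per the file headers. No source used here gives the aligner, counter, genome build or strand handling, and DESeq2 is named as a tool per the submitters' processing notes. It also holds mRNA lengths and the authors' mean normalized signal, log2 fold changes and adjusted p-values for other comparisons, per the file headers; only the length was used. Of 10014 rows, 145 second transcripts held 0 counts and were dropped.

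The tests ran in edgeR 4.0.16 (R 4.3.3): filterByExpr with the 7 groups (9499 of 9869 gene models kept; 0.00468% of counts left out), TMM factors, and the quasi-likelihood test on 1 model with a mean per group over 14 libraries (7 residual and 5.50 prior degrees of freedom), with Benjamini-Hochberg adjustment over all genes tested. Standard errors are the size of a fold change over the root of its F. Members, lists and alternatives were chosen with earlier results of these data known.

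Named genes passed the threshold, had replicates that did not overlap and reached 10 CPM in the higher group; the first 12 by fold change in each direction that match a protein-coding entry in RefSeq ASM3387043v1 were taken, which left out 1 gene. Of the gene models 9531 matched, with 0 symbols other than locus tags, so no gene names, products or lists by function are given. For the interaction the first 2 in each direction, and for runs the 3 with the largest mean change, were named. Alternatives were a fit of only the libraries compared, DESeq2 1.42.0, other or no scaling factors, no filter, thinned libraries, removal of length trends, a replicate block, and each replicate left out. Replicates differed by more than sampling noise in every group (chi-square per gene 12.3 to 132). Intervals cover counting error only.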

Additional observations from a re-analysis of the deposited data

Results flagged for a closer look

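In 5 named genes the difference between the strains in perithecia departed from that in mycelium by the interaction test (edgeR, n = 2 libraries per group). The interaction, on the log2 scale, was 6.13 for SMAC_07669 (adjusted p = 0.00743), 4.68 for SMAC_03185 (adjusted p = 0.0375) and 4.97 for SMAC_07756 (adjusted p = 0.0328), with the larger difference in perithecia. It was -5.74 for SMAC_01390 (adjusted p = 0.0323) and -3.88 for SMAC_09488 (adjusted p = 0.0295), with the larger difference in mycelium. SMAC_03185 had 1.29 and 3.95 CPM in Δasm2 mycelium and 1.03 and 2.38 CPM in ΔSMAC_03952 mycelium, so the strains overlapped there.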

How the results depend on the processing

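With all libraries, the perithecia comparison called 427 genes and between 300 and 508 with other or no scaling factors, no filter, thinned libraries, length trends removed or a replicate block (441 genes). It called 685 (511 higher, 174 lower) by DESeq2 and 1855 in the 4-library fit. Leaving out 1 library gave 90 to 207. The mycelium comparison called 329 genes, 674 by DESeq2 and 40 with only its libraries, and 114 to 540 with 1 library left out; without ΔSMAC_03952 mycelium replicate 1 it called 540 (297 higher, 243 lower), without replicate 2 of Δasm2 and of ΔSMAC_03952 129 and 114. The interaction called 14 genes, 104 by DESeq2, 9 with no scaling factors, 7 in thinned libraries and 0 with only the 8 libraries compared (1025 at an unadjusted p under 0.05), and 0 to 25 with 1 left out. Wild-type perithecia against mycelium called 2662 genes and 1412 to 1896 with 1 left out.

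With a replicate block these 4 counts were 441, 341, 17 and 2798, and no named gene's call changed. The labels tie no replicate number to a shared batch, and deviations of same-numbered samples correlated at 0.22 between the perithecia groups compared and from -0.33 to 0.38 over all pairs of groups, so the numbers were not taken to pair the samples. No named gene changed direction. Of the 12 named genes in each direction, 9 of the higher and 3 of the lower kept their call in all 12 alternatives. All 4 interaction genes lost their call when the 8 libraries alone were fitted, and without either ΔSMAC_03952 perithecia replicate; adjusted p where a call was lost lay between 0.0511 and 0.530. The cause was not tested. With 2 replicates a group, p-values rest on a spread shared between groups, and a group left with 1 library is assumed to vary like the others. ΔSMAC_03952 perithecia were the shallowest perithecia, which limits genes near 0 there.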
